A study of Mus musculus with 16 samples.

Results

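Cebpb and Cebpd encode C/EBPβ and C/EBPδ, the CCAAT/enhancer-binding proteins that appear first when preadipocytes start to become fat cells. The islands of both genes were collected from 16 ChIP-seq lists of 3T3-L1 cells, preadipocyte fibroblasts of the mouse that turn into fat cells in culture. Every island that overlapped the gene body or the 120 kb on either side was taken, which gave 316 islands of 479799 in all, 233 at Cebpb and 83 at Cebpd. An island is a stretch in which enriched windows of 200 bp have been joined by the peak caller SICER. In mm9, Cebpb (ENSMUSG00000056501.3) lies on the plus strand at chr2:167514415-167515918. Cebpd (ENSMUSG00000071637.4) lies on the plus strand at chr16:15887379-15888559 and is carried as a pseudogene in the GENCODE vM1 annotation of that build, although it is the C/EBPδ gene.

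H3K27ac, a histone mark of active enhancers and promoters, was measured in cells with an empty retrovirus and in cells with a retrovirus for V5-tagged SETD5, called SETD5 cells below, at 0 h and at 48 h. Each of these 4 groups had 2 libraries, A and B, and so had ChIP of the V5 tag (SETD5-V5) at 0 h and at 6 h. H3K4me1 is found at primed and active enhancers. It was measured at 0 h and at 48 h. Endogenous SETD5 was measured with its own antibody before induction and 6 h after it. These 4 conditions had 1 library each and therefore no replicate check. Differentiation was induced with MDI, a mixture of insulin, dexamethasone and IBMX, and the labels give 48 h as day 2. All cells were 3T3-L1, the SETD5 cells were stably transduced lines with far more SETD5 than normal cells, and the study calls A and B biological replicates, without a word in the labels on separate cultures. The labels name no virus for SETD5-V5 library A and the SETD5 virus for H3K4me1, which the study shows as untransduced cells. The lists held between 31292 and 39949 islands for H3K27ac, 50276 and 49926 for H3K4me1, 16054 and 6666 for SETD5-V5 at 0 h (A and B), 35573 and 27220 at 6 h, and 2132 and 3293 for endogenous SETD5. They hold no read counts within islands, so the depth behind a single island is unknown, and a region absent from a list was below the caller's threshold.

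C/EBPβ and C/EBPδ are induced within hours of the hormonal stimulus. IBMX raises cyclic AMP, which acts on Cebpb through CREB, and dexamethasone acts through the glucocorticoid receptor and raises Cebpd. Both proteins then bind enhancers of Cebpa and Pparg, the genes of the late regulators C/EBPα and PPARγ. SETD5 is found with the NCoR-HDAC3 corepressor, whose deacetylase removes acetyl groups from histones.

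The promoters are shown because every H3K27ac list had an island over them. The 250 bases before the Cebpb start (mm9 chr2:167514165-167514414, plus strand) have CRE cores (TGACG, or CGTCA on the other strand) and GC boxes (GGGCGG) in capitals.
Cebpb promoter: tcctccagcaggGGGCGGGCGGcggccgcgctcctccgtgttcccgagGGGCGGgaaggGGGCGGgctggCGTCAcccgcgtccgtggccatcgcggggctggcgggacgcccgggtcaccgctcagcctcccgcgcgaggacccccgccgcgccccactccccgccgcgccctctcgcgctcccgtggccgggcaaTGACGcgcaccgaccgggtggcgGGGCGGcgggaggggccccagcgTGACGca
For Cebpd, bases -250 to -101 before the annotated start (mm9 chr16:15887129-15887278, plus strand) have the GC box in capitals.
Cebpd promoter: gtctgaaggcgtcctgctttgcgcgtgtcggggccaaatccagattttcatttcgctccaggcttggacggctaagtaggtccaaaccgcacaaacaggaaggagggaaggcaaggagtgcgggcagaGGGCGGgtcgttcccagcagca
Over the 250 bases before each start and on both strands, Cebpb had 3 CRE cores, at -180, -53 and -7, and 5 GC boxes, 2 of which overlap. Cebpd had 1 CRE core, at -44 and thus outside the stretch printed, and 2 GC boxes, at -122 and -58. Of 22350 promoters of the same length, 19.4% held a CRE core and 39.6% a GC box. A TATA box (TATAAA), the AP-1 sequence TGANTCA, the STAT sequence TTCNNNGAA and the C/EBP consensus TTGCNNAA had 0 matches in either promoter, and were found in 12.3%, 6.00%, 6.83% and 9.16% of promoters. Such a match is a string of letters and not a measured binding site.

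The distal regions were taken as 4 kb centred at +77 and +88 kb from the Cebpb start and at +62 and +98 kb from the Cebpd start, the places the study names. In the mm9 annotation, the +77 kb region (chr2:167589415-167593414) touched no gene and the +88 kb region (chr2:167600415-167604414) overlapped an exon of the processed transcript Gm14321. The +62 kb region (chr16:15947379-15951378) and the +98 kb region (chr16:15983379-15987378) lay in introns of 2310008H04Rik. The 100 bases around the C/EBP match nearest to each centre are shown with the 8 matching bases in capitals, since C/EBP proteins bind such letters at enhancers. All are written along the plus strand, and both Cebpd matches read TTGCNNAA on the minus strand.
Cebpb +77 kb (chr2:167589858-167589957): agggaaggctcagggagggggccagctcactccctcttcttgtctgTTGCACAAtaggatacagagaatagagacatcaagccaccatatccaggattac
Cebpb +88 kb (chr2:167601757-167601856): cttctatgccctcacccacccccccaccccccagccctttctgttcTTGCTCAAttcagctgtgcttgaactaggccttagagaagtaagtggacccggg
Cebpd +62 kb (chr16:15949363-15949462): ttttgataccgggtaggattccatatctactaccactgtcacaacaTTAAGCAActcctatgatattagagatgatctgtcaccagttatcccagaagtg
Cebpd +98 kb (chr16:15985250-15985349): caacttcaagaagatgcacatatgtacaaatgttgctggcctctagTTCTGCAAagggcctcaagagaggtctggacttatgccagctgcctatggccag
Each Cebpb region had 1 match in 4 kb and each Cebpd region 2, against a median of 2 over the 68316 stretches of 4 kb of chromosomes 2 and 16. At least as many matches were found in 85.1% of these stretches for Cebpb and in 59.3% for Cebpd, so these regions were not rich in the consensus.

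The 2 genes stood in very different surroundings. The Cebpb window was among the most heavily acetylated of the genome, with many islands on both sides of the gene. The Cebpd window held a few short islands, mainly near the promoter and around the distal regions. Upstream of Cebpd, the stretch from -24.6 to -23.6 kb was acetylated in all 8 H3K27ac lists. The share of the window covered by H3K27ac islands in empty-vector cells at 0 h was 48.2% in library A and 42.1% in library B at Cebpb, and 10.0% and 8.96% at Cebpd. The Cebpb window was above 99.8% of the other gene windows in each of these libraries. The Cebpd window was above 73.4% and 74.5% of them, with medians of 4.74% and 4.10% over the 22351 gene windows compared. These were the windows of the protein-coding genes and Cebpd, and windows of neighbouring genes overlap, so they are not independent.

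**Figure D1:**
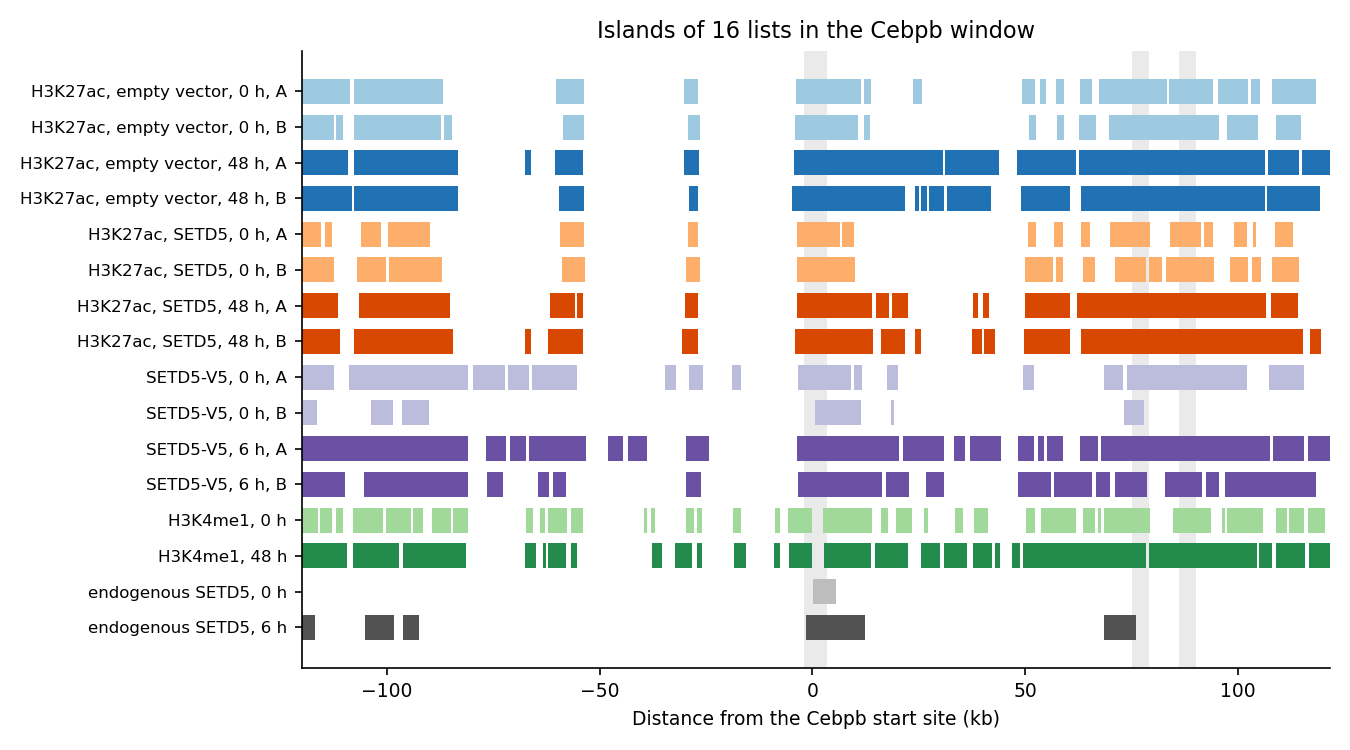
Islands in the Cebpb window, 1 row for each of the 16 lists, against distance from the start site in kb. Grey bands mark the gene body with 2 kb on either side and the 4 kb regions at +77 and +88 kb, and at 48 h a single H3K27ac island of 43.2 to 52.2 kb covered both distal regions.

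**Figure D2:**
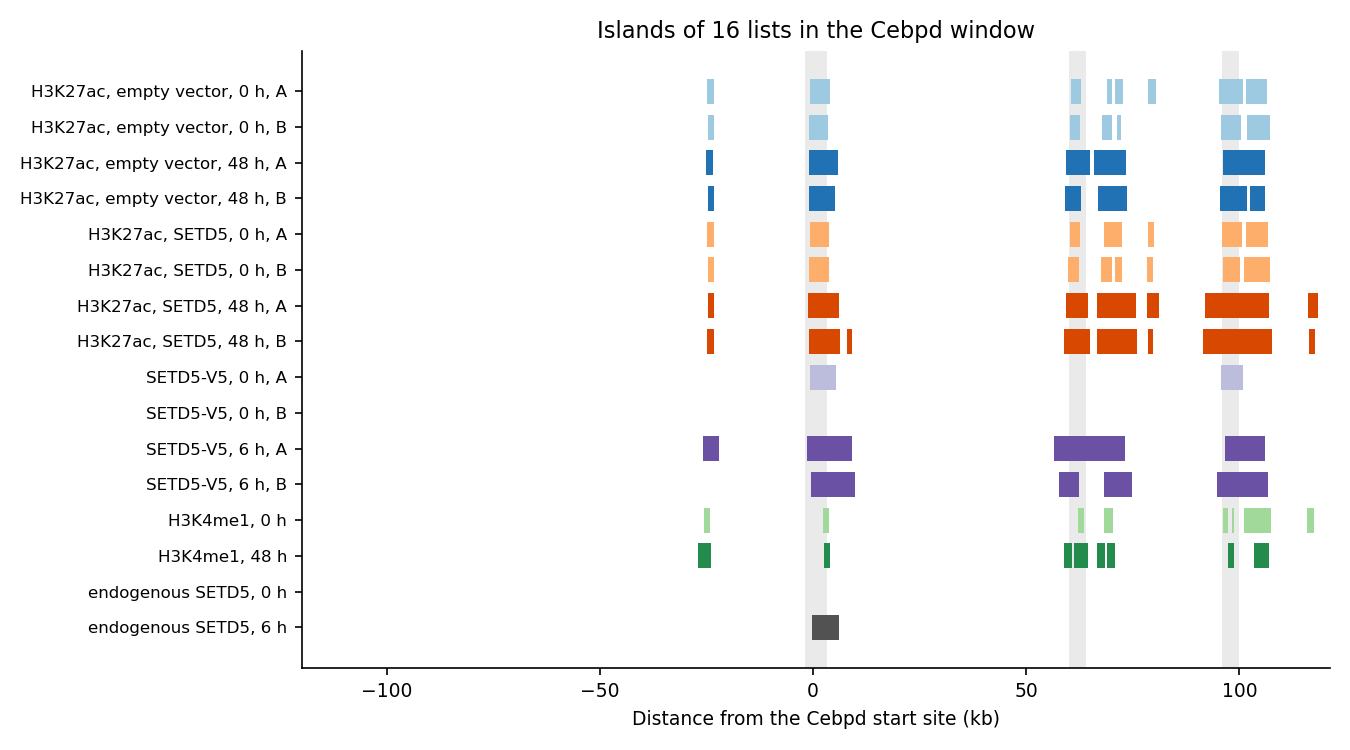
Islands in the Cebpd window, drawn in the same way with grey bands at the gene body and at +62 and +98 kb. SETD5-V5 library B at 0 h and endogenous SETD5 at 0 h had 0 islands here, and the H3K27ac islands were longest in SETD5 cells at 48 h.

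All 6 regions already carried H3K27ac before induction. Both promoters and all 4 distal regions held an H3K27ac island in 8 of 8 lists and an H3K4me1 island in 2 of 2 lists. In SETD5-V5 lists, the Cebpb promoter and the +77 kb region had an island in 4 of 4, the +88 kb region, the Cebpd promoter and the Cebpd +98 kb region in 3, and the Cebpd +62 kb region in 2, both at 6 h. Endogenous SETD5 was listed at the Cebpb promoter at 0 h and at 6 h, and at the Cebpb +77 kb region and the Cebpd promoter at 6 h. At the +77 kb region its island covered only 24.65% of the 4 kb, and 35.0% of the list scored higher. The other 3 distal regions were in neither endogenous SETD5 list.

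H3K4me1 marked the 2 genes differently. At Cebpb it covered 54.0% of the window at 0 h and 69.5% at 48 h, and at Cebpd 6.80% and 7.46%. The Cebpb start site itself lay in a gap of H3K4me1, between an island that ended at -0.214 kb and one that began at 2.39 kb at 0 h. At 48 h this gap ran from -0.014 to 2.59 kb. At the Cebpd promoter there was only a short island downstream of the gene, of 1.4 kb at 0 h and 1.6 kb at 48 h. Of the Cebpb window, 36.4 kb had H3K4me1 and no empty-vector H3K27ac island at 0 h, and 49.5% of this length was acetylated in both empty-vector libraries at 48 h. The same share was 23.8% of 4.2 kb at Cebpd and 13.4% of 57058 kb over the genome. H3K27me3 was not analysed here, so primed and poised chromatin cannot be told apart in this length.

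In empty-vector cells, H3K27ac spread further over both windows by 48 h. The Cebpb window was covered to 68.7% (A) and 63.8% (B) at 48 h, up from 48.2% and 42.1% at 0 h, or 66.2% ± 3.5 against 45.2% ± 4.3 (mean ± SD, n = 2). Both 48 h libraries lay above both 0 h libraries. The difference of 21.1 percentage points was larger than that of 99.5% of 19490 gene windows. The Cebpd window went from 10.0% and 8.96% to 13.0% and 11.6%, or from 9.49% ± 0.76 to 12.3% ± 1.0 (n = 2), and the groups again did not overlap. Its difference of 2.82 points was larger than that of 75.5% of gene windows. Groups of 2 libraries cannot give an exact permutation p under 0.333 (two-sided). This is the p of every comparison below of 2 against 2 libraries in which the groups did not overlap. It does not hold for values with 1 library left out. Such separation was common over the genome: the 48 h group was higher in 43.0% and lower in 24.6% of the windows.

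The gain at Cebpb came with fewer and longer islands. The number of islands in the window went from 16 and 14 at 0 h to 11 and 12 at 48 h (A and B). The island at the start site grew from 15.2 and 14.6 kb to 35.0 and 26.6 kb. The islands at +77 and +88 kb, separate in library A at 0 h (15.8 and 10.4 kb) and already joined in library B (26.0 kb), were a single island of 43.6 and 43.2 kb at 48 h. It was near the top of its list, with 0.0192% and 0.0121% of all islands scoring higher. In all, 33.8 kb of the Cebpb window had H3K27ac in both 48 h libraries and in neither 0 h library, and 0 kb went the other way. The longest such stretches ran from +31.6 to +42.0 kb and from +13.8 to +21.8 kb. At Cebpd, 5.4 kb were gained and 0.4 kb lost, all in pieces of at most 1.2 kb beside islands that were there at 0 h.

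**Figure D3:**
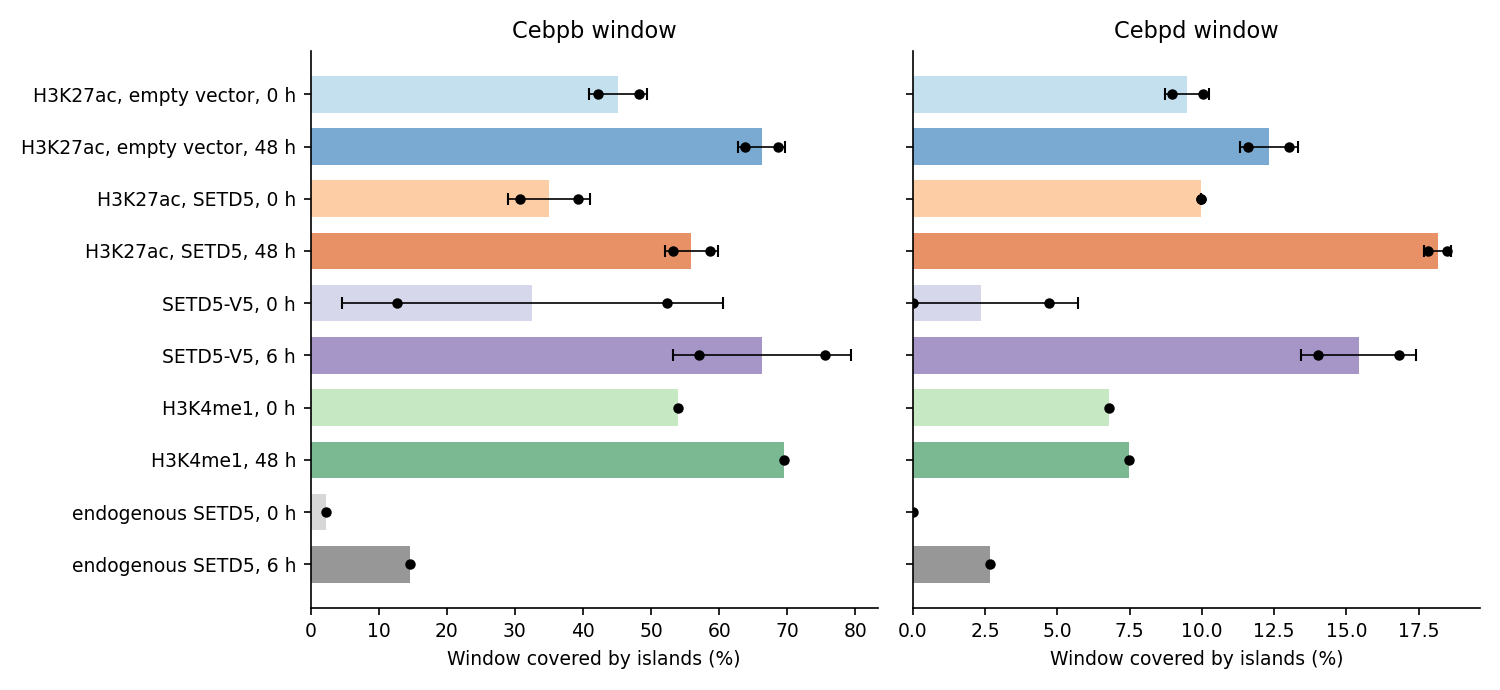
Share of each window covered by islands, in percent, for the 10 groups. Points are libraries, bars their means and whiskers the SD of the groups of 2 libraries; the 2 panels have different axes. SETD5 cells lay below empty-vector cells at Cebpb at both times and above them at Cebpd at 48 h.

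The score that the caller gave the island at the start site rose in rank at both genes. The rank is given as the percent of islands of the same list with a higher score, a measure chosen after its values had been seen. It was 1.41% (A) and 1.47% (B) at Cebpb at 0 h and 0.0639% and 0.0785% at 48 h. At Cebpd it went from 9.96% and 12.5% at 0 h to 4.32% and 4.68% at 48 h. The 48 h libraries ranked higher at both genes, as they did at 43.2% of 9512 genes with an island within 2 kb of the start site in all 4 lists. A longer island sums more windows, so that rank can depend on length, which was not tested.

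In SETD5 cells, the same 48 h of differentiation also widened the islands. The Cebpb window was covered to 30.7% (A) and 39.2% (B) at 0 h and to 53.2% and 58.6% at 48 h. The means were 35.0% ± 6.0 and 55.9% ± 3.9 (n = 2), and the groups did not overlap. The difference of 20.9 points stood beside 21.1 in empty-vector cells, but within 60 kb of the gene it was 17.3 points beside 29.2. The Cebpd window was covered to 9.95% in both libraries at 0 h and to 17.8% and 18.5% at 48 h. The means were 9.95% ± 0 and 18.2% ± 0.47 (n = 2), also without overlap, and the difference of 8.21 points stood beside 2.82 in empty-vector cells. With only the islands above the median score of each list, these were 7.30 and 4.56 points. The differences in the separate letters were 7.88 (A) and 8.54 (B) in SETD5 cells and 2.99 (A) and 2.65 (B) in empty-vector cells, and the difference between vectors in the effect of time was not tested. In SETD5 cells, 33.9% of 19530 gene windows were higher at 48 h and 32.3% were lower, without overlap. The Cebpb and Cebpd differences were larger than those of 99.8% and 96.1% of these windows. Within 60 kb of the gene, the Cebpd difference was 3.55 points in SETD5 cells and 2.31 in empty-vector cells.

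The start-site island ranked higher at 48 h in SETD5 cells as well. At Cebpb, 1.54% and 1.56% of islands had a higher score at 0 h and 0.0819% and 0.119% at 48 h. At Cebpd these values were 7.94% and 10.2% at 0 h and 0.607% and 0.991% at 48 h. Of 10004 genes with such an island, 43.7% ranked higher at 48 h without overlap.

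SETD5 was compared with empty-vector cells at 0 h to see whether the loci differed before induction. At Cebpb, H3K27ac covered less of the window with SETD5, with 30.7% and 39.2% against 48.2% and 42.1%. The difference was -10.2 points, and 0.139% of 19398 gene windows had a more negative one. It rested on library A more than on library B, with -17.5 points in A and -2.90 in B. It was -5.92 without SETD5 library A, the most deeply sequenced of the H3K27ac libraries. The whole 0 h lists covered 121 Mb (A) and 103 Mb (B) with empty vector and 109 and 120 Mb with SETD5. Whether depth or these totals bear on the difference was not tested. Within 60 kb of Cebpb, the difference was -2.87 points and the groups overlapped. Over the genome, 14.2% of windows were lower and 28.3% higher with SETD5. At Cebpd, the 0.456 points by which SETD5 was above empty vector were within the spread of the libraries, and the groups overlapped (exact permutation p = 1.0, two-sided).

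Only a part of the 0 h difference at Cebpb was shared by both libraries of each group. In both empty-vector libraries and in neither SETD5 library there were 8.6 kb of the Cebpb window, of which the longest ran from -111.8 to -110.2 kb and from +12.2 to +13.6 kb. At Cebpd there were 0.2 kb. In contrast, 69.2 kb at Cebpb and 17.0 kb at Cebpd were acetylated in all 8 H3K27ac libraries, among them -3.6 to +6.4 kb at Cebpb and -0.8 to +3.4 kb at Cebpd. The rank of the start-site island at 0 h was lower with SETD5 at Cebpb (1.54% and 1.56% against 1.41% and 1.47% of islands scoring higher). In numbers of islands, 617 and 571 scored higher with SETD5 and 476 and 520 with empty vector. Of 9846 genes, 6.35% ranked lower and 57.3% ranked higher in percent with SETD5 without overlap, in lists that were longer with SETD5. At Cebpd the ranks overlapped.

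At 48 h the genes differed from empty vector in opposite directions. With SETD5, H3K27ac covered less of the Cebpb window and more of the Cebpd window than with empty vector. At Cebpb the libraries stood at 53.2% and 58.6% with SETD5 and at 68.7% and 63.8% with empty vector, and at Cebpd at 17.8% and 18.5% with SETD5 and at 13.0% and 11.6% with empty vector. The groups did not overlap at either gene. The differences were -10.3 points at Cebpb, with 1.14% of 19400 gene windows smaller, and 5.85 points at Cebpd, with 98.4% smaller. In the separate letters the Cebpb difference was uneven, at -15.5 points in A and -5.13 in B. The Cebpd difference was 4.81 points in A and 6.88 in B. The Cebpb mean difference was close to the -10.2 points of 0 h in this window but not within 60 kb. There it was -14.8 points at 48 h and -2.87 at 0 h. Cebpd had stood at 0.456 points at 0 h. Each direction was common, with 35.8% of windows lower and 25.2% higher with SETD5 without overlap. The comparison uses the same 48 h libraries as those over time.

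**Figure D4:**
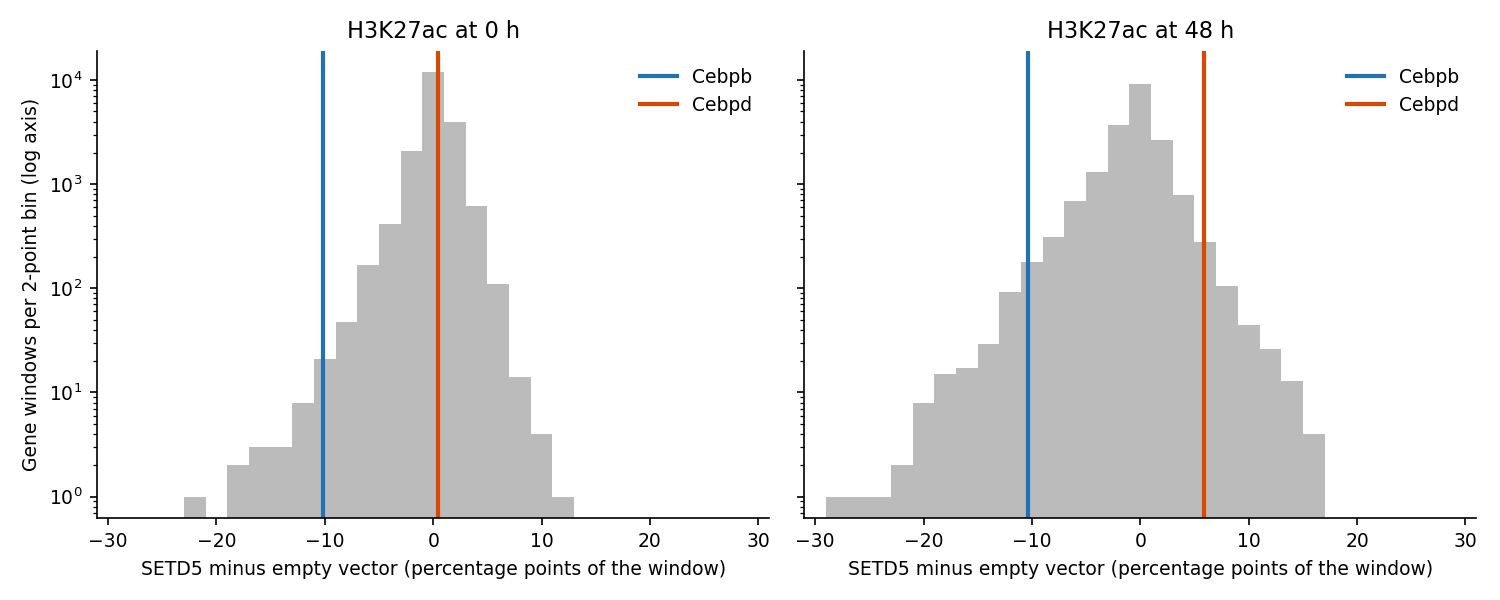
Difference in covered share between SETD5 and empty-vector cells, in percentage points of the window, at 0 h and 48 h. Grey bars count gene windows in bins of 2 points on a log axis, and lines mark Cebpb and Cebpd. At 48 h Cebpb lay in the lower tail and Cebpd in the upper tail.

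At Cebpb, most of the gained length that was missing with SETD5 at 48 h lay between the gene and the distal cluster. Of the 33.8 kb gained in empty-vector cells, 45.0% was covered in both SETD5 libraries and 37.9% in neither, against 50.8% and 30.8% of the 27810 kb gained over the genome. The absent stretches were mainly those from +25.8 to +26.8, +27.4 to +30.6 and +31.6 to +37.4 kb. These lie inside the noncoding transcript A530013C23Rik (chr2:167516677-167554672, plus strand). Upstream the longest was from -84.4 to -83.2 kb. The start-site island was shorter with SETD5, at 17.6 and 18.2 kb against 35.0 and 26.6 kb, and separate islands followed it in SETD5 cells up to about the place where it ended in empty-vector library B. The joined +77 and +88 kb island was not shorter, at 44.4 and 52.2 kb with SETD5 and 43.6 and 43.2 kb with empty vector.

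At Cebpd, nothing gained in empty-vector cells was missing with SETD5. Both SETD5 libraries covered 100% of the 5.4 kb gained. A further 7.2 kb had H3K27ac in both SETD5 libraries at 48 h and in no empty-vector library, with the longest stretches from +91.8 to +95.2, +73.6 to +75.6 and +116.2 to +117.8 kb. At Cebpb there were 1.6 kb of this kind. The +98 kb island was 15.0 and 16.2 kb long with SETD5 and 10.0 and 6.4 kb with empty vector. The +62 kb islands overlapped in length, at 5.2 and 6.0 kb with SETD5 and 5.4 and 3.8 kb with empty vector. Within 60 kb of Cebpd the difference was 1.40 points. The 3 longest SETD5-only stretches lay outside the 4 kb regions at +62 and +98 kb.

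The Cebpd promoter island was little longer with SETD5 at 48 h but ranked much higher. It was 7.2 kb long in both SETD5 libraries and 6.8 and 6.2 kb with empty vector. Of the islands of each list, 0.607% and 0.991% had a higher score with SETD5 and 4.32% and 4.68% with empty vector. At Cebpb the order was turned, with 0.0819% and 0.119% with SETD5 and 0.0639% and 0.0785% with empty vector. The SETD5 lists were longer (39068 and 39451 islands against 31292 and 33131), which alone can lower such a percent. Counted in islands, 237 and 391 scored higher than the Cebpd promoter island with SETD5 and 1351 and 1549 with empty vector, and 32 and 47 against 20 and 26 at Cebpb. Over 10020 genes, the percent rank was higher with SETD5 at 57.1% and lower at 14.8% without overlap, shares that the list lengths may also set.

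**Figure D5:**
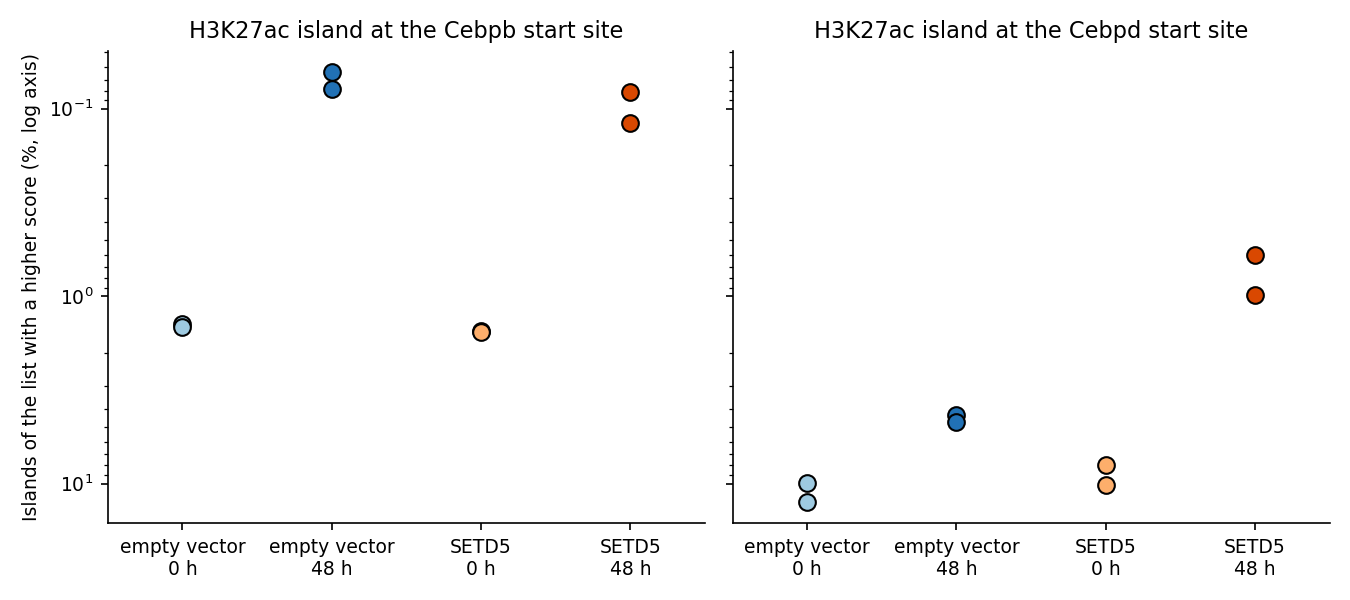
Percent of the islands of a list with a higher score than the H3K27ac island at the start site, on a log axis with higher ranks at the top, for both libraries of 4 groups. At Cebpd the SETD5 libraries at 48 h, at 0.607% and 0.991%, ranked above all others.

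SETD5-V5 occupied both loci more widely at 6 h than at 0 h. At Cebpb it covered 52.3% (A) and 12.8% (B) of the window at 0 h and 75.5% and 57.1% at 6 h, or 32.5% ± 28.0 and 66.3% ± 13.0 (n = 2). The groups did not overlap, but the 0 h libraries lay far apart. The difference was 33.7 points, 13.9 without 0 h library B and 53.5 without 0 h library A. At Cebpd it covered 4.73% and 0% at 0 h and 16.8% and 14.0% at 6 h, or 2.36% ± 3.34 and 15.4% ± 1.99 (n = 2), without overlap and with a difference of 13.1 points. The lists themselves grew, from 85.6 and 35.3 Mb at 0 h to 196 and 148 Mb at 6 h, and 63.4% of 18511 gene windows were higher at 6 h and 1.07% lower. The Cebpb difference was larger than that of 98.8% of these windows and the Cebpd difference than that of 82.3%. When windows were ranked within each list, the Cebpb groups overlapped, since its window was above 99.3% and 96.0% of genes at 0 h and above 99.6% and 99.2% at 6 h.

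SETD5-V5 at 6 h covered most of the length that had H3K27ac in all empty-vector libraries, and other parts of the windows too. Both 6 h libraries covered 128.6 kb of the Cebpb window, in which the start-site stretch ran from -3.4 to +16.4 kb, and 29.0 kb of the Cebpd window, or 53.2% and 12.0% of the windows. At Cebpd this was in 4 stretches, from -0.6 to +9.2, +57.6 to +62.4, +68.2 to +73.2 and +96.6 to +106.0 kb. Of the length with H3K27ac in all 4 empty-vector libraries, both 6 h libraries covered 86.2% of 94.4 kb at Cebpb and 88.6% of 17.6 kb at Cebpd, against 59.4% over the genome. Of the length gained by 48 h, they covered 46.7% at Cebpb and 77.8% at Cebpd, against 36.5% over the genome, so that the Cebpb share was below that of its whole window. Of the 7.2 kb at Cebpd acetylated with SETD5 alone, they covered 2.78%, and of the 1.6 kb of this kind at Cebpb 62.5%, against 30.9% over the genome.

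Both SETD5-V5 libraries at 0 h shared 29.4 kb at Cebpb and 0 kb at Cebpd. At Cebpb the shared part held +0.6 to +9.0 kb behind the start site and +73.8 to +77.8 kb at the +77 kb region. Since the 6 h lists were longer, ranks are given here as numbers of islands. In library A, 292 of 16054 islands scored higher than the Cebpb promoter island at 0 h and 47 of 35573 at 6 h, and in library B 243 of 6666 and 61 of 27220. At Cebpd, 1762 islands of library A scored higher at 0 h, no promoter island was listed in B, and 566 (A) and 709 (B) scored higher at 6 h. These ranks were not compared with those of other genes.

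Endogenous SETD5, in 1 library at each time, gave far fewer islands. At Cebpb there was 1 island at 0 h, of 5.4 kb from +0.186 to +5.59 kb, and 5 at 6 h, and the covered share was 2.24% and 14.6%. The 6 h start-site island was 13.8 kb long, and 49 of 3293 islands scored higher, against 419 of 2132 at 0 h. At Cebpd there was none at 0 h and 1 of 6.4 kb at 6 h, at the promoter, with 324 islands scoring higher. The Cebpb window was above 93.2% and 97.7% of genes and the Cebpd window, when listed, above 81.7%.

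Other genes lie in these windows, so that an island cannot be assigned to Cebpb or Cebpd from its place. The Cebpb window holds the starts of Ube2v1, which encodes a ubiquitin-conjugating enzyme variant, at -56.8 kb and of Tmem189 at -27.4 kb. Both starts had H3K27ac in 8 of 8 lists and SETD5-V5 in 3 of 4. A second protein-coding Tmem189 model, on the minus strand, starts at +0.9 kb, so that the island at the Cebpb start site covers its start too, with H3K27ac in 8 of 8 lists, SETD5-V5 in 4 of 4 and endogenous SETD5 in 2 of 2. It also holds noncoding transcripts, among them A530013C23Rik at +2.3 kb and 9230111E07Rik at +93.1 kb. The Cebpd window holds the start of Mzt2 at -23.9 kb, with H3K27ac in 8 of 8 lists and SETD5-V5 in 1 of 4.

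Genes around Cebpb and Cebpd in the adipogenic cascade were measured by the same window. Of 14 downstream targets, 10 were higher and 1 was lower at 48 h in empty-vector cells, against 43.0% higher and 24.6% lower of all windows, with a median difference of 7.66 points against 0.443. Cebpa and Pparg were among those higher, from 20.8% and 19.9% to 46.0% and 44.6% at Cebpa and from 41.2% and 31.1% to 59.4% and 52.5% at Pparg. With SETD5 at 48 h, 11 of the 14 were lower than with empty vector and 0 higher, against 35.8% lower and 25.2% higher of all windows, with a median of -9.01 points against -0.207. Cebpb was on the side of these targets and Cebpd was not. At 0 h, 4 of the 14 were higher and 4 lower with SETD5, against 28.3% and 14.2% of all windows.

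Of 9 upstream factors, at 48 h 5 were higher and 3 lower with SETD5 than with empty vector, against the same 25.2% and 35.8% of all windows, with a median of 1.34 points against -0.207. Those higher were Creb1, Klf4, Egr2, Atf4 and Fos, and those lower were Stat3, Stat5a and Stat5b, which share a neighbourhood. In empty-vector cells over time, 4 of the 9 were higher and 3 lower, and 4 of 9 is close to the 43.0% of all windows. Of the other 4 C/EBP family genes, 3 (Cebpa, Cebpe and Cebpg) were lower with SETD5 at 48 h and 0 higher, and the windows of Cebpa and Cebpg largely overlap. The differences were -20.0 points at Cebpa and -19.0 at Cebpg. At Cebpe it was -0.248 points, near the median of -0.207 over all windows. Cebpa is also counted among the 14 targets. In empty-vector cells over time, 3 of the 4 family genes were higher and 0 lower. In SETD5 cells over time, where 33.9% of all windows were higher and 32.3% lower, 10 of 14 targets were higher and 3 lower, 5 upstream factors were higher and 1 lower, and 3 family genes were higher and 1 lower. SETD5-V5 at 6 h was above 0 h at 8 of 14 targets, 7 of 9 upstream factors and 1 of 4 family genes, against 63.4% of all windows. The median differences were 8.31, 7.43 and 1.45 points, against 5.19 over all windows.

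The genes whose covered share was ranked most like that of Cebpb over the 16 lists were Isyna1, Hsf2bp, Ssbp4, Ell and Capg, with a mean absolute difference of 0.303 to 0.457 percentile points. For Cebpd they were Pkm2, Parp6, 2600006K01Rik, Sf3b1 and Il1rl1, with 4.80 to 5.51 points. Cebpb and Cebpd themselves were 33.1 points apart. Genes whose windows overlap the window of the gene in question were left out of this ranking. Overlap among the listed genes themselves was not excluded. Isyna1, Ssbp4 and Ell all lie on chromosome 8, and Pkm2 and Parp6 on chromosome 9, so they may not be separate loci.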

How the data were processed

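Islands of 16 ChIP-seq libraries were used. The authors aligned the first 36 bases of the reads (ELAND or Bowtie2, build mm9) and ran SICER or SICER2 on every library alone. The windows were 200 bp and the E-value was 100. Gaps of up to 400 bp (histone marks) or 600 bp (SETD5) were bridged. The deposited score of each island is the caller's own value and was used here only to rank islands within a list. The members, gene lists and tests were chosen with earlier results of these data known.

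For each gene, the percent of the window (gene body plus 120 kb on each side) covered by islands was computed. A group was called higher or lower when both of its libraries lay beyond both of the other group's, and exact permutation tests over libraries were run (two-sided). Genes named in the text were Cebpb and Cebpd, genes that start in their windows, the members of 3 lists (C/EBP family, upstream factors and downstream targets), and the 5 genes nearest to each in rank over the 16 lists, besides 2310008H04Rik, which holds the Cebpd distal regions. A 48 h or 0 h stretch counted as gained or lost only when both libraries concurred. Sequences and gene models came from NCBIM37, which is mm9, with GENCODE vM1. Alternatives were only the islands scoring above the median, the same number of top islands from each list (31000 for H3K27ac and 6000 for SETD5-V5), flanks of 60 and 200 kb, islands within 1000 bp merged, percentiles among genes, each library left out, and a replicate block. Covered lengths were tested on simulated data, with 0 wrong of 1000 windows. Python 3.11.15, numpy 2.4.6, scipy 1.17.1, pandas 2.3.3, matplotlib 3.10.9 and samtools 1.23.1 were used. H3K27me3 and expression data were not analysed here.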

Additional observations from a re-analysis of the deposited data

How the results depend on the processing

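The 10 differences in covered share of the Cebpb and Cebpd windows were recomputed 11 times each. Of these 110 values, 104 kept their direction and their state of overlap. This count includes values that could not differ. Where groups of 2 libraries did not overlap, neither leaving 1 out nor the replicate block can change the call. The Cebpb difference between SETD5 and empty-vector cells at 0 h lost its separation within 60 kb (-2.87 points), and that of SETD5-V5 over time lost it as percentile among genes (1.74 percentile points). The small Cebpd difference between SETD5 and empty-vector cells at 0 h, whose groups overlapped, was separated with islands above the median score (1.41 points) and with equal numbers of islands (0.829 points). It ran from -0.0829 to 0.995 points with 1 library left out, negative without empty-vector library B; the cause was not tested. With 1 library left out, the groups of the other 9 differences did not overlap. That outcome was fixed, since groups of 2 that are apart stay apart when a library is removed. A lone library also has no spread of its own. The replicate block by letter gave the same means (for Cebpb over time in empty-vector cells, 21.1 points), with a smallest sign-flip p of 0.5. It changed no call, which for the 9 separated differences was fixed in advance. The labels do not say that letters pair libraries, and deviations of same-letter libraries correlated between -0.424 (SETD5 against empty vector at 0 h) and 0.54 (SETD5-V5) over genes. A crossed pairing of that 0 h comparison, added after seeing the data, gave 12263 windows with differences of 1 sign, against 9582 by letter. In the 3 comparisons over time the letters gave more than the crossed pairing (15556 against 13996 in empty-vector cells, 15088 against 13990 in SETD5 cells and 15124 against 12093 for SETD5-V5), and fewer in SETD5 against empty vector at 48 h (13200 against 14124). The number of lists with an island at each of the 6 regions stayed within 1.5 times under all 3 alternatives. Neither depth within islands nor levels below the caller's threshold can be seen in these lists.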
